A study of Mus musculus with 5 samples.

Results

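The genes described here are 7 effector genes of basophils and mast cells, Prss34, Mcpt8, Cpa3, Ms4a2, Fcer1a, Cd200r3 and Cyp11a1. They were chosen by name, as 7 of the 15287 genes in a table of unique molecular identifiers (UMIs, each standing for 1 captured transcript) from 12893 single bone marrow cells. The cells came from untreated mice aged 20 weeks and labelled Fgd5CreERT2/+Rosa26Tomato/+, in which an Fgd5 knock-in drives the fluorescent protein ZsGreen together with a tamoxifen-inducible Cre, so all groups carried both alleles. Each library was a sort of lineage-negative CD45.2+ c-kit+ cells. For 3 libraries nothing more was required (Lin-kit+, called a, b and c here). Of the other 2, 1 also required ZsGreen (Fgd5+), and 1 required ZsGreen with the Sca1+CD150+CD48- stem cell phenotype (HSC-Fgd5+). The question put to the 7 genes was where in the c-kit+ compartment their transcripts lay, in which cells they were found together, and whether they were present among Fgd5 reporter-positive cells.

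Basophils and mast cells are granulocytes that carry the high-affinity receptor for IgE and release proteases, histamine, lipid mediators and cytokines when antigen crosslinks it. Their granules hold serine proteases, of which Mcpt8 and Prss34 are typical of mouse basophils, and the metalloprotease Cpa3, which is shared with mast cells and their progenitors. The receptor has an IgE-binding alpha chain (Fcer1a), a signal-amplifying beta chain (Ms4a2) and a gamma chain shared with other Fc receptors (Fcer1g). Cd200r3 is an activating relative of the CD200 receptor, and Cyp11a1 is the mitochondrial enzyme that turns cholesterol into pregnenolone.

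The genes lie on 7 different chromosomes of mm10 (GENCODE M21 gene spans). Prss34 is at chr17:25298394-25300165 on the plus strand and Mcpt8 at chr14:56082166-56085273 on the minus strand. Cpa3 (chr3:20215620-20242181), Ms4a2 (chr19:11615523-11623719) and Fcer1a (chr1:173221284-173227214) are on the minus strand, Cd200r3 (chr16:44943678-44981380) and Cyp11a1 (chr9:58006411-58027023) on the plus strand. Mcpt8 belongs to the chromosome 14 protease cluster, where Ctsg lies 14.6 kb, Cma1 137 kb and Gzmb 174 kb away. Cyp11a1 overlaps the lincRNA Gm17322 on the same strand, so reads of these genes may not be separable. Of the 50-base windows along the transcripts, 0% were shared with another gene for Prss34, Mcpt8, Cpa3 and Fcer1a. The shared portion was 2.098% for Ms4a2 (with Ms4a4b), 2.69% for Cd200r3 and 2.06% for Cyp11a1. These windows cover whole transcripts, whereas UMIs count 3′ ends, so the portions do not give the ambiguity of the counts.

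The 100 bases before the transcription start are shown for 6 of the genes, 5′ to 3′ on the strand of the gene, because they show which of these co-detected genes have a GATA word next to the start. Capitals mark GATA words on either strand, that is GATA with A or T before it and A or G after it, as in AGATAA. The capitals of Cd200r3 hold a pair of such words side by side. The sequences are RefSeq starts on GRCm38.p6, at chr17:25298294-25298393 (Prss34), chr3:20242182-20242281 (Cpa3), chr19:11623720-11623819 (Ms4a2), chr1:173227230-173227329 (Fcer1a), chr16:44943578-44943677 (Cd200r3) and chr14:56085198-56085297 (Mcpt8).
Prss34: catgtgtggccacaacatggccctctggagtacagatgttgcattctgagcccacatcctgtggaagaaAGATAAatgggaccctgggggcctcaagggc
Cpa3: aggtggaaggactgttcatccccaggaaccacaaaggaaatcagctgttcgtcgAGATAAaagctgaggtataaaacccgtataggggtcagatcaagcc
Ms4a2: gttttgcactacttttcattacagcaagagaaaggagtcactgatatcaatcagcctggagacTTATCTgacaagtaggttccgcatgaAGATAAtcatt
Fcer1a: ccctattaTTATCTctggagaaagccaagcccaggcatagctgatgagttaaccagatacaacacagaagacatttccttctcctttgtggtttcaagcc
Cd200r3: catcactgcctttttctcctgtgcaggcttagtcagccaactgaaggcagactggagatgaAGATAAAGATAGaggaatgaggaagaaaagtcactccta
Mcpt8: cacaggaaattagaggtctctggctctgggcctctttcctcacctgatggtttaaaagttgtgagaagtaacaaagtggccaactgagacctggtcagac

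Over the longer windows of 300 bases (250 before to 50 after each start), 6 of the 7 genes held at least 1 GATA word. By window it was 6 of 8, since Cyp11a1 has 2, against 29.8% of 32851 promoter windows of the same length. The closest words started 31 bases before the start in Prss34, 46 in Cpa3, 11 in Ms4a2, 92 in Fcer1a and 33 in Cd200r3. Cyp11a1 has 2 RefSeq starts, neither of them at the start of its GENCODE span. Only the window of the second held a word, 231 bases before that start. The RefSeq start of Mcpt8 lies inside its GENCODE span. Words and distances refer to the RefSeq starts only. Mcpt8 had none in its window, but held the RUNX word TGTGGT 188 and, on the other strand, 139 bases before its start. RUNX words were in 4 of the 7 genes (16.8% of all windows), C/EBP words (TTGCNNAA) in 3 (10.8%), E-box words (CACGTG and, as a variant, CACATG) in 3 (20.4%) and STAT words (TTCNNNGAA) in 0 (8.30%). By window these were 4, 3, 3 and 0 of 8. All were searched on both strands, and a match is a description of the sequence only.

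The libraries held 1339, 4095 and 6147 cells for Lin-kit+ a, b and c, 793 for Fgd5+ and 519 for HSC-Fgd5+, with 2166655 to 36080242 UMIs per library and a median of 3721 to 6567 UMIs per cell. The table marks libraries only by a barcode suffix, and the population of each suffix was taken from the cell number that the study gives for it, so these numbers are no check of the labels. For the ZsGreen+ pair the sample titles and the sort descriptions disagree on which is which, which does not touch the comparison in which they stand together. No label says whether the libraries came from separate mice, so the p-values measure the spread between libraries, which may be technical. Between libraries 62 cell barcodes were shared, at most 0.771% of the smaller library of a pair. HSC-like cells, clustered and named from separate markers, made up 91.8% of Fgd5+ and 93.1% of HSC-Fgd5+ cells, and 0.146% to 0.597% of the Lin-kit+ libraries.

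In the Lin-kit+ libraries the 3 granule protease genes were the most abundant of the 7. Prss34 had 6488, 12109 and 27407 UMIs in a, b and c, which is 649, 648 and 760 counts-per-million (CPM), its UMIs scaled by the UMI total of the library. Mcpt8 had 549, 498 and 560 CPM, and Cpa3 119, 92.9 and 114 CPM. The 3 ranges do not overlap, so the order Prss34 (686 ± 64.2, SD, n = 3 libraries), Mcpt8 (536 ± 33.3) and Cpa3 (109 ± 14.1) held in every library. UMIs count 3′ ends of transcripts, so these levels carry no gene length.

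The IgE receptor chains came next. Fcer1a had 59.0, 48.2 and 58.5 CPM (mean 55.2 ± 6.11) and Ms4a2 33.5, 29.9 and 34.5 CPM (32.6 ± 2.44), again without overlap. Cd200r3 (4.60, 5.35 and 6.04 CPM) and Cyp11a1 (6.20, 4.82 and 5.93 CPM) were the rarest, and their levels overlapped, with means of 5.33 ± 0.721 and 5.65 ± 0.733. Library b was the lowest of the 3 for every gene but Cd200r3, which was lowest in a.

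**Figure D1:**
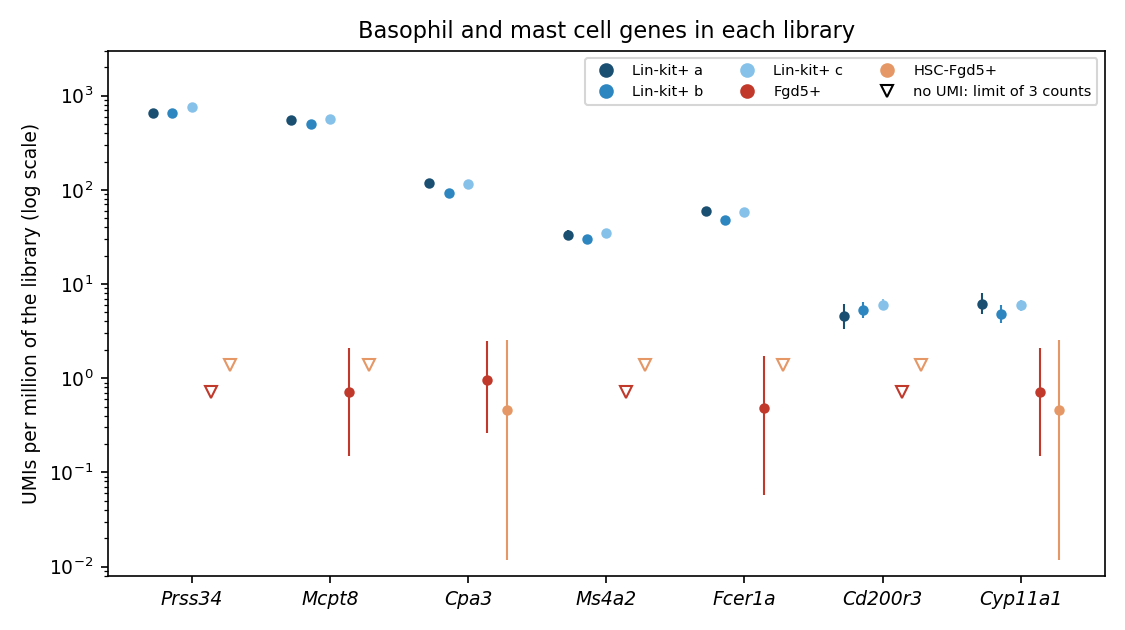
CPM of each gene in the 5 libraries, on a log axis, with exact Poisson 95% intervals; open triangles mark libraries with no UMI at the level that 3 counts would give. The 3 Lin-kit+ libraries lie close together for every gene, from 649 to 760 CPM for Prss34 down to 4.60 to 6.04 CPM for Cd200r3, and the reporter-positive libraries lie below 1 CPM or at no UMI.

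Detection followed a different order from level. Mcpt8 was found in 11.3% ± 1.84 of the Lin-kit+ cells (SD, n = 3), Cpa3 in 9.26% ± 1.03 and Prss34 in only 6.43% ± 1.43, although Prss34 gave the most UMIs. Ms4a2 was found in 5.17% ± 0.626, Fcer1a in 4.36% ± 0.624, Cyp11a1 in 1.93% ± 0.476 and Cd200r3 in 1.54% ± 0.360. These shares depend on depth. After each cell was thinned to 1000 UMIs (8 of 11581 cells were shallower and left out), Cpa3 led with 5.75% ± 0.236, followed by Mcpt8 with 4.92% ± 0.417 and Prss34 with 3.65% ± 0.407.

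The transcripts were concentrated in very few cells. Of 11581 Lin-kit+ cells, 69 held 50% of all Prss34 UMIs and 80 held 50% of the Mcpt8 UMIs, whereas 164 cells were needed for Cpa3. The 116 cells (1%) richest in a gene held 71.7% of the Prss34 UMIs, 64.6% for Mcpt8, 57.1% for Fcer1a, 43.2% for Ms4a2 and 39.7% for Cpa3. The highest single cell held 807 Prss34 UMIs and another 516 Mcpt8 UMIs, against a maximum of 49 for Cpa3, 41 for Fcer1a, 20 for Ms4a2, 10 for Cd200r3 and 7 for Cyp11a1.

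Among the 1312 reporter-positive cells the 7 genes were almost absent. Prss34, Ms4a2 and Cd200r3 had 0 UMIs in both reporter-positive libraries. With the limit for a count of 0 set at 3 counts, up to 0.229% of these cells could hold a UMI. Mcpt8 had 3 UMIs in Fgd5+ and 0 in HSC-Fgd5+, Fcer1a 2 and 0, Cpa3 4 and 1, and Cyp11a1 3 and 1. In total 14 UMIs lay in 12 cells, 10 of them Fgd5+ and 2 HSC-Fgd5+. Each of these cells held a single UMI of 1 gene except 1 Fgd5+ cell that held all 3 Mcpt8 UMIs. That cell was the deepest of its library, at 21331 UMIs, and fell in a neutrophil-like cluster rather than among HSC-like cells.

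Pooled over libraries, the level in Lin-kit+ cells was at least 1500.0-fold higher for Prss34, at least 69.7-fold higher for Ms4a2 and at least 11.9-fold higher for Cd200r3, against the level that 3 counts over both reporter-positive libraries would give. The ratio was 1142 for Mcpt8 (95% interval from counting 391 to 5535), 176 for Fcer1a (48.7 to 1454) and 138 for Cpa3 (59.2 to 425). For Cyp11a1 it was 8.95 (3.50 to 32.8), the lowest of the 4 ratios. In the edgeR quasi-likelihood fit over 11991 genes, 7 of 7 genes were called lower in the reporter-positive libraries, beside 30.4% of all genes tested. Each had 0 to 5 UMIs in those libraries. The genes entered the fit through the libraries where they are high, so they are given with no p and their number adds nothing to the single values. The fitted difference was -7.62 ± 0.26 for Cpa3, -7.93 ± 0.35 for Fcer1a, -10.65 ± 0.27 for Mcpt8 and -3.67 ± 0.38 for Cyp11a1 on the log2 scale (SE). For the 3 genes at 0 UMIs it depends on the prior count and is not given.

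Of 22 genes of IgE receptor signalling, 9 were called higher and 8 lower in the reporter-positive libraries and 5 were not called, beside 32.7% of all genes called higher and 30.4% lower, with a median log2 difference of 0.23 against 0.07 over all genes. Of 17 mast cell or basophil marker genes in the table, 6 were higher, 9 lower and 2 not called, with a median of -1.31. With library totals in place of TMM scaling the median of all genes moved to 0.60 and the calls over all genes changed from 3921 higher and 3646 lower to 6586 higher and 1993 lower; the 7 genes were lower under either scaling. In sorted populations of different make-up, fewer cells of a type and less RNA per cell cannot be told apart from library sums, which is why the levels are followed through the cells below.

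To find the cells that carry the transcripts, all cells were clustered without the 7 genes and without Fgd5. Of 22 clusters, 1 was named mast or basophil-like, from 15 of 17 listed markers that did not include the 7 genes. It held 552 cells, 66, 183 and 303 in Lin-kit+ a, b and c (4.93%, 4.47% and 4.93%), and 0 cells of the reporter-positive libraries. The transcription co-factor gene Lmo4 was found in 88.9% of these cells, the muscle LIM protein gene Csrp3 in 86.2%, Gata2 in 61.8% and Hdc, the histamine-forming enzyme, in 61.6%. The connective tissue mast cell protease gene Cma1, the only gene of its marker list in the table, was found in 1.99%. The eosinophil granule gene Prg2 was found in 8.51% of the class, at 3455 CPM in the class as a whole, and Epx in 5.25%, so the class also takes in cells with eosinophil transcripts.

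Most UMIs of every gene lay in this class. For Prss34 the share was 99.03%, 97.6% and 95.3% in a, b and c (97.3% ± 1.87, SD, n = 3), for Mcpt8 94.0% ± 2.87 and for Cpa3 76.7% ± 1.42. For Fcer1a it was 95.5% ± 2.16, for Ms4a2 88.4% ± 3.74, for Cd200r3 94.2% ± 3.77 and for Cyp11a1 95.5% ± 3.53. With the class drawn in this way Cpa3 stood apart, with 75.2% to 78.1% inside in the 3 libraries against 84.5% or more for each of the other genes. This contrast rests on where the class ends. An unnamed cluster led by Wfdc17 was kept out on a limit set after the clusters had been seen. It held 1133 UMIs of the 7 genes, 70.2% of them Cpa3. All cells outside the class together held 6285 such UMIs, 25.5% of them Cpa3, so this cluster holds a large part of the outside Cpa3. The shares with that cluster counted as inside were not computed, so the contrast is given for this class boundary only. Library a gave the largest inside share for 5 of the 7 genes and library c the smallest for 6.

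Within the class Prss34 made up 19513 ± 2270 CPM and Mcpt8 14699 ± 647 CPM (mean ± SD, n = 3 libraries). Cpa3 reached 2429 ± 171, Fcer1a 1533 ± 68.8 and Ms4a2 841 ± 24.4 CPM. Cyp11a1 (157 ± 6.15) and Cd200r3 (147 ± 27.4) were again the lowest and overlapped. In the other Lin-kit+ cells together the levels were 33.3 ± 17.4 CPM for Mcpt8, 26.3 ± 4.32 for Cpa3 and 19.8 ± 15.5 for Prss34. They were 3.92 ± 1.43 for Ms4a2, 2.58 ± 1.28 for Fcer1a and under 1 CPM for Cd200r3 and Cyp11a1. The ranges of the first 3 genes overlapped there. The Prss34 level outside rests on the cells that enter: with doublets left out it was 12.2 ± 8.10 CPM, and with the 7 genes kept in the clustering 8.48 ± 2.94, both below the Cpa3 level in every library. The latter clustering placed cells by Prss34 itself, so its lower level outside is no separate check.

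Cells of the class differed widely among themselves in the serine proteases and much less in Cpa3. Cpa3 was found in 94.4% of the 552 cells, with a median of 7 UMIs and a middle range of 3 to 15. Prss34 was found in 61.2% with a median of 8.5, but the upper quartile lay at 135 UMIs and the lower quartile at 0. Mcpt8, in 69.4% of cells, had a median of 17 and an upper quartile of 97.5. Ms4a2 was in 83.0% (median 3), Fcer1a in 74.5% (median 4), Cyp11a1 in 35.7% and Cd200r3 in 29.2% (medians 0).

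The libraries differed in the serine proteases too. The median for Prss34 per class cell was 31 UMIs in a, 5 in b and 6 in c, and for Mcpt8 47, 9 and 19. Scaled to the UMI total of the class cells, library a was instead the lowest for both genes. Prss34 made up 16948, 20328 and 21264 CPM in a, b and c, and Mcpt8 13964.5, 15187.8 and 14943.1 CPM. The share of class cells with Prss34 was 72.7%, 55.2% and 62.4%, while that with Cpa3 was 96.97%, 92.3% and 95.05%. Library a also had the greatest depth per cell, and the part of depth in these medians was not tested.

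**Figure D2:**
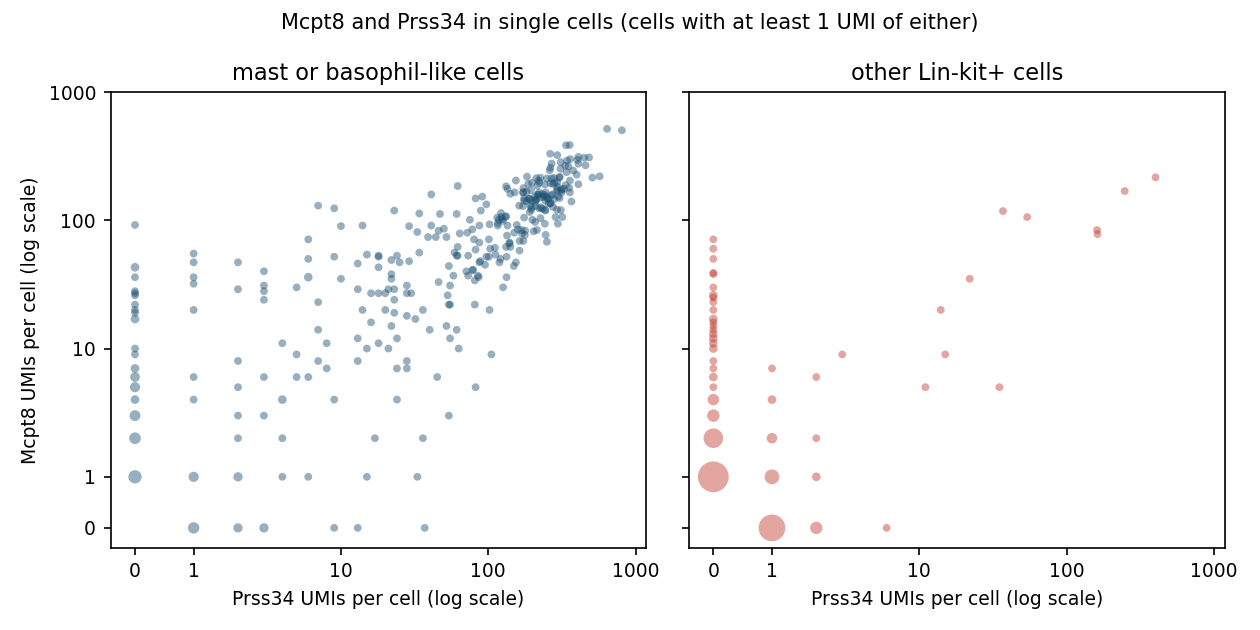
Mcpt8 against Prss34 UMIs per cell on log axes, with counts of 0 drawn at a position below 1, for Lin-kit+ cells with at least 1 UMI of either gene. The left panel shows mast or basophil-like cells, the right panel all other cells, and point area grows with the number of cells at a position. Inside the class the genes rise together to 807 Prss34 and 516 Mcpt8 UMIs; outside, most cells sit at a single UMI, with a column of cells at 0 Prss34 and up to 71 Mcpt8 UMIs.

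Outside the class the clusters with the highest levels differed among the genes, although some were shared. Over the 17 other clusters with at least 50 Lin-kit+ cells, Cpa3 had a median of 3.53 CPM but stood high in 4. These were a small T or NK-like cluster led by Ccl5 (373 ± 158 CPM, found in 32.7% of its cells, 53 cells in all), an unnamed cluster led by Wfdc17 and Cd34 (188 ± 69.7 CPM, 18.8%), an unnamed cluster led by the mitosis gene Psrc1 (122 ± 25.6 CPM, 20.2%) and an erythroid-like cluster led by Rec114 (86.5 ± 8.02 CPM, 16.7%). The next cluster had 24.3 CPM. The lowest of the 3 library values in each of these 4 clusters, 77.4 CPM or more, was above the mean of all the remaining clusters. The Ccl5-led cluster had 5 listed mast or basophil markers above threshold beside 6 T or NK markers. The Psrc1-led cluster had 3 beside 3 erythroid markers, and the Rec114-led cluster 2 beside 8. These clusters thus lay outside the named class but were not free of its markers.

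Mcpt8 had a flatter distribution, with a median of 27.0 CPM over the 17 clusters. It was highest in the neutrophil-like cluster led by Fkbp11, Ctsg and Mpo, at 29.2 to 121 CPM in the 3 libraries (75.3 ± 45.7), followed by the Wfdc17-led cluster at 59.8 ± 13.5. The Rec114-led (46.1 ± 67.6), Trem2-led (42.6 ± 29.7) and Rgcc-led (41.2 ± 24.7) clusters came next, and all these ranges overlapped. The Fkbp11-led cluster also had the largest share of cells with Mcpt8, 22.6% ± 4.21, against 3.01% pooled over the Cd74-led monocyte or dendritic-like cluster and 2.30% in the Ltf-led neutrophil-like cluster. Depth differed among them, with a median of 6875 UMIs per cell in the Fkbp11-led cluster, 3067 in the Cd74-led and 4919 in the Ltf-led. With every cell thinned to 1000 UMIs the shares were 5.31%, 0.752% and 0.405%.

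Prss34 had no such home outside the class. Its median over clusters was 5.86 CPM, and the highest means, 61.5 ± 51.8 in a neutrophil-like cluster led by Camp and 54.0 ± 45.0 in a monocyte or dendritic-like cluster led by Trem2, had an SD nearly as large as the mean. Without 35 cells that held at least 10 UMIs of Prss34 or Mcpt8, a choice made once the values were known, the pooled level was 8.39 CPM in the first and 6.86 CPM in the second. The pooled Mcpt8 level of the Fkbp11-led cluster went from 94.8 to 42.3 CPM without those cells. It was then no longer the highest, beside 42.6 CPM in the Wfdc17-led and 50.3 CPM in the Ccl5-led cluster, where 1 cell held all 8 UMIs.

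The IgE receptor chains outside the class sided with Cpa3 in the erythroid-like and mitotic clusters. Fcer1a had 25.3 ± 3.67 CPM in the Rec114-led and 20.2 ± 14.2 in the Psrc1-led cluster, over a median of 0.630. Ms4a2 had 33.0 ± 8.86 and 42.5 ± 47.1 CPM there, over a median of 1.31, although in the Psrc1-led cluster 1 library had none. In the Wfdc17-led cluster, where Cpa3 was high, Fcer1a stood at 0.630 and Ms4a2 at 3.87 CPM. Cd200r3 and Cyp11a1 did not exceed a mean of 1.72 CPM in any of the 17 clusters. The Wfdc17-led cluster had 4 listed mast or basophil markers above threshold but none among its leading genes and was kept out of the class on a limit set after the clusters had been seen. It made up 9.93%, 9.55% and 9.58% of the Lin-kit+ libraries and 0.631% and 0.578% of Fgd5+ and HSC-Fgd5+.

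**Figure D3:**
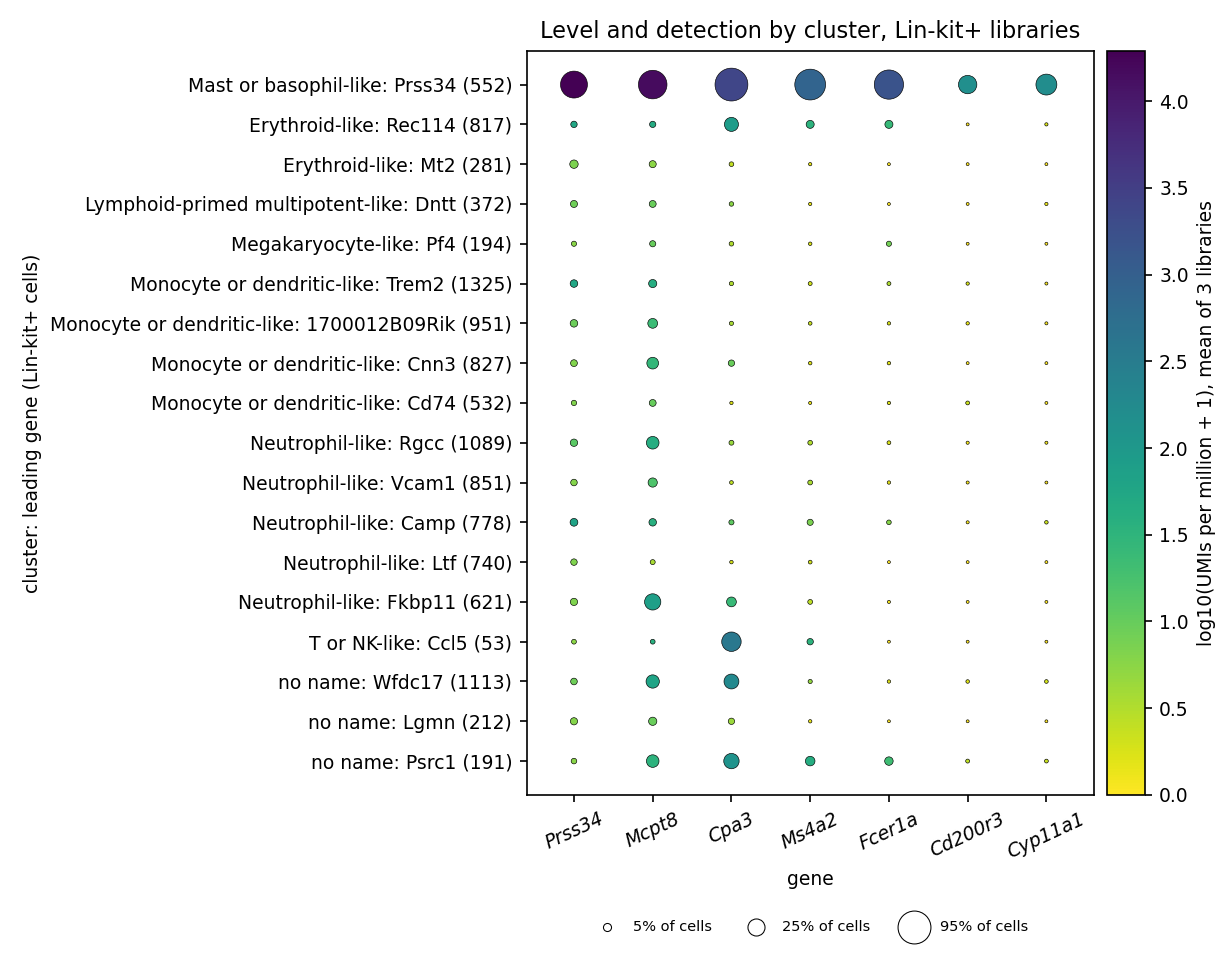
Level (colour, log10 of CPM + 1, mean of the 3 Lin-kit+ libraries) and share of cells with a UMI (circle area) of each gene in every cluster with at least 50 Lin-kit+ cells, named by class and leading gene. The mast or basophil-like row is dark for all 7 genes. Outside it, Cpa3 stands out in the Ccl5-, Wfdc17-, Psrc1- and Rec114-led clusters. Mcpt8 has its highest mean in the Fkbp11-led cluster (75.3 ± 45.7 CPM), with a range that overlaps those of the next clusters. Its pooled level in that cluster, 94.8 CPM, was 42.3 without the cells of at least 10 Prss34 or Mcpt8 UMIs.

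The ratios between the genes also differed from cluster to cluster. Inside the class there were 0.732 Mcpt8 UMIs per Prss34 UMI (95% interval from counting 0.722 to 0.743). In all other cells the ratio was 1.55 (1.45 to 1.65), in the Wfdc17-led cluster 6.85 (4.90 to 9.80) and in the Fkbp11-led cluster 13.6 (9.45 to 20.3). Without the cells of at least 10 Prss34 or Mcpt8 UMIs these ratios were 2.33 (2.09 to 2.604), 5.0 (3.55 to 7.21) and 5.97 (4.06 to 9.04). In the Ltf-led cluster it was 0.50 (0.262 to 0.920), an interval that includes the value inside the class. For Cpa3 the ratio to Prss34 was 0.123 inside, 19.9 (14.5 to 28.0) in the Wfdc17-led and 23.2 (10.4 to 64.2) in the Psrc1-led cluster. The part of free RNA in these levels was not tested. Intervals here and elsewhere cover counting error only.

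A few cells outside the class held many Mcpt8 UMIs. In 24 of them there were 10 to 71 Mcpt8 UMIs and no Prss34 UMI, and 3 of the 24 held any other of the 7 genes. They came from all 3 libraries (4, 5 and 15 cells in a, b and c), 8 of them lay in the Fkbp11-led cluster, and 1 was called a doublet. A further 8 cells outside held at least 10 Mcpt8 UMIs together with Prss34, and 5 of these were called doublets. Inside the class 280 of 293 cells with at least 10 Mcpt8 UMIs also held Prss34. The 13 that did not all held Cpa3, and 12 of them held Ms4a2 and 12 Fcer1a.

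Cells with several of the genes lay mostly inside the class. Of the 552 class cells, 83 held all 7 genes, 146 held 6 and 86 held 5, while 54 held 1 and 9 none. Of 11029 other Lin-kit+ cells, 9154 held none and 1641 held 1. Outside the class, 83.6% of the cells with Mcpt8, 83.4% of those with Prss34 and 66.7% of those with Cpa3 held no other of the 7 genes. For Ms4a2 it was 49.7% and for Fcer1a 50.5%. Of the 17 cells outside with Cd200r3 and the 15 with Cyp11a1, 5 and 5 held that gene alone. Co-detection rises with depth, and class cells were shallower (median 3433 UMIs) than Lin-kit+ cells at large (5160).

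Within the class, both shares of a pair count the same cells, so their inequality only reflects how many cells held each gene. Of 338 cells with Prss34, 94.7% also held Mcpt8, against 69.4% of all class cells. Of 383 cells with Mcpt8, 83.6% held Prss34 (84.6% ± 2.58 as the mean over the 3 libraries), against 61.2% of all class cells. All 161 cells with Cd200r3 held Cpa3, and 98.98% of 197 cells with Cyp11a1 did, little above the 94.4% of all class cells. Mcpt8 was present in 96.3% of the cells with Cd200r3 and 96.4% of those with Cyp11a1. In the other direction, 37.4% of cells with Cpa3 held Cyp11a1 and 30.9% held Cd200r3, near the 35.7% and 29.2% of all class cells. The rarest pair, Cd200r3 and Cyp11a1, shared 91 cells. Cyp11a1 was in 56.5% of the cells with Cd200r3 against 35.7% of all class cells, and Cd200r3 in 46.2% of the cells with Cyp11a1 against 29.2% of all class cells.

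**Figure D4:**
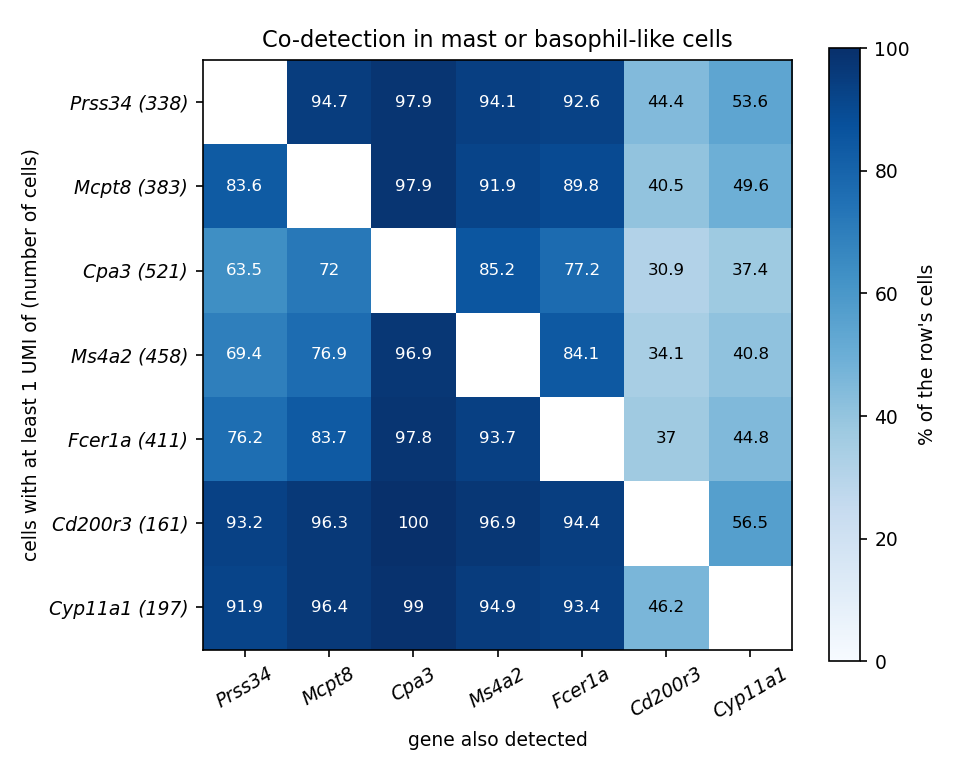
Share of mast or basophil-like cells with the gene of each line that also held the gene of each column, in percent, with the number of cells in brackets. The columns of Cpa3 are nearly full (96.9 to 100), those of Cd200r3 and Cyp11a1 lie between 30.9 and 56.5, and Prss34 is in 63.5 of every 100 cells with Cpa3 but 93.2 of every 100 with Cd200r3. Of all class cells, 94.4% held Cpa3 and 61.2% held Prss34.

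Across cells, the levels (log of 1 plus UMIs scaled to the median depth) of Prss34 and Mcpt8 had a Pearson correlation of 0.90 over all 11581 Lin-kit+ cells and 0.90 over the 552 class cells. For Fcer1a with Prss34 it was 0.85 and 0.72. Pairs with Ms4a2 dropped most inside the class, for example from 0.71 to 0.40 with Mcpt8 and from 0.53 to 0.19 with Cyp11a1. These are descriptions over cells that share libraries and depth, and the values over all cells rest largely on the class against the rest. Among genes outside the set, Rnase12 was the most similar to each of the 7 over the 11581 cells, with r from 0.47 for Cd200r3 to 0.71 for Fcer1a. Csrp3 came second for 6 of the 7, with r from 0.38 for Cyp11a1 to 0.61 for Ms4a2. The third place went to Gm11697 for Prss34, Mcpt8 and Cyp11a1 (0.34 to 0.42) and to Lmo4 for Cpa3, Ms4a2 and Fcer1a (0.44 to 0.53), while for Cd200r3 Gpr34 (0.31) preceded Csrp3 (0.31).

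Since nearly all class cells held Cpa3 and many held neither serine protease gene, class cells with Mcpt8 or Prss34 were compared with cells that held Cpa3 alone among these 3 genes. The state was set on counts thinned to 2000 UMIs in the 495 class cells that reached that depth. There were 356 cells with Mcpt8 or Prss34, 102 with Cpa3 only and 37 with none of them. UMIs were summed per library and state (47 and 12 cells in a, 100 and 29 in b, 209 and 61 in c) and compared in edgeR with the library as a block. Cpa3 itself, which the split used, stood at 3013, 3072 and 3163 CPM in the cells with Mcpt8 or Prss34 and at 1237, 1264 and 1310 CPM in Cpa3-only cells.

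Of the 4 genes that the split did not use, Fcer1a and Ms4a2 were counted well in both states and were higher in the cells with Mcpt8 or Prss34, beside 4.58% of the 3141 genes tested that were called in this direction. Cd200r3 and Cyp11a1 had at most 4 UMIs in any library of Cpa3-only cells and entered the fit through the other state, so their values are given with no p. Fcer1a had 1971, 2143 and 2037 CPM in these cells of a, b and c against 642, 343 and 423 CPM in Cpa3-only cells. The states did not overlap, and the difference was 2.26 ± 0.13 on the log2 scale (SE, adjusted p = 2.11e-14, edgeR). Ms4a2, the receptor's beta chain, had 972, 1016 and 960 against 550, 490 and 541 CPM, a smaller difference of 0.98 ± 0.13 (adjusted p = 2.34e-06, edgeR). Cd200r3 had 156, 243 and 212 against 11.5, 39.2 and 16.3 CPM, a fitted difference of 3.38 ± 0.34, and the states did not overlap. In Cpa3-only cells the Cd200r3 values rest on 1, 4 and 4 UMIs.

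Cyp11a1 had 234, 218 and 212 CPM in the cells with Mcpt8 or Prss34 against 11.5, 0 and 16.3 CPM in Cpa3-only cells, where it was seen as 1, 0 and 4 UMIs. The fitted difference was 4.29 ± 0.39 on the log2 scale and leans on those few counts: it was 5.33 without library c and 2.92 with states set at 1000 UMIs, where that of Cd200r3 was 3.45. Ms4a2 was thus present in both states, Fcer1a was lower but clearly present in Cpa3-only cells (37.9% to 54.1% of them), and Cd200r3 and Cyp11a1 were found in at most 8.33% of Cpa3-only cells. The calls of Fcer1a and Ms4a2 held under each alternative that was run.

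**Figure D5:**
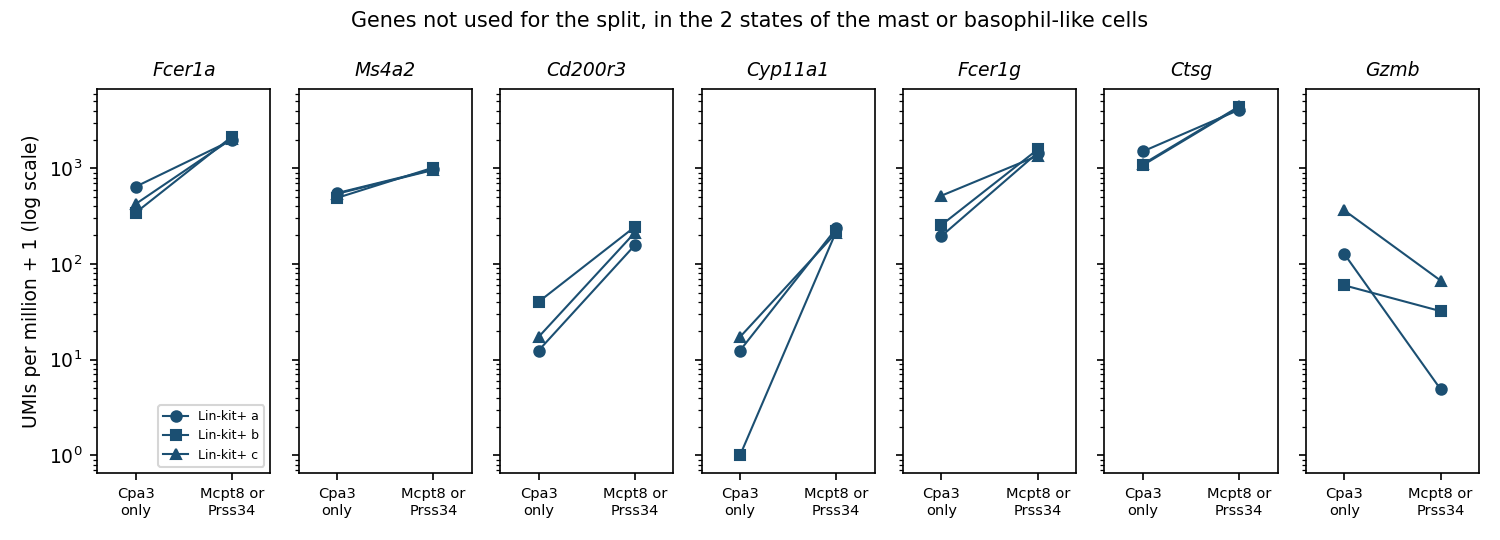
CPM + 1 on a log axis of 7 genes in Cpa3-only cells and in cells with Mcpt8 or Prss34 of the same class, 1 line for each Lin-kit+ library. Fcer1a, Ms4a2, Cd200r3, Cyp11a1, Fcer1g and Ctsg are higher in the cells with Mcpt8 or Prss34 in all 3 libraries, while Gzmb is lower in all 3, from 126, 58.8 and 362 to 3.90, 31.1 and 66.1 CPM.

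Over all genes 144 were higher and 78 lower in the cells with Mcpt8 or Prss34 (222 in all). This number depends on library b, without which 33 genes were called, against 136 without a and 138 without c. With library totals in place of TMM the split was 120 higher and 146 lower. Of the 23 list genes named below, Ccl3, Ctsg, Fcer1g, Gzmb, Ms4a3 and Tyrobp kept their calls in all 12 alternatives and Cyp4f18 in the 8 that tested it, while the calls of the other 16 were lost without library b. Ccl3, Ccl4, Cyp4f18, Ets1 and Itga2b, 5 of the 23, had under 10 UMIs in every library of Cpa3-only cells and entered the fit through the other state. Their calls add nothing to the list counts below that hold them. Counts over the lists below stand beside 4.58% of all genes called higher and 2.48% lower.

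Of the IgE receptor signalling genes, 3 of 8 tested were higher and 0 lower. They were the receptor's gamma chain Fcer1g (2.12 ± 0.18 on the log2 scale, adjusted p = 1.13e-10 in edgeR, 1456, 1574 and 1351 against 195, 255 and 517 CPM) and the membrane adaptors Lat (1.38 ± 0.33) and Lat2 (1.21 ± 0.22). Without library b the adjusted p in edgeR was 0.10 for Lat and 0.0885 for Lat2. With DESeq2 2 of 3 tested were called. The median difference over the 8 genes was 0.91, against -0.02 over all genes tested.

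Among lipid and amine mediators 3 of 5 were higher, the leukotriene genes Alox5 (1.44 ± 0.28) and Alox5ap (0.90 ± 0.15) and the leukotriene-degrading Cyp4f18 (4.53 ± 0.76, with 0, 0 and 4.07 CPM in Cpa3-only cells), while Hdc gave 0.40 ± 0.18 and was not called. With DESeq2 it was 2 of 4. The chemokine genes Ccl3 (3.23 ± 0.41) and Ccl4 (2.77 ± 0.47) were higher, 2 of 4 cytokine and chemokine genes (1 of 3 with DESeq2). Both rest on few counts, with 6 and 7 UMIs in all Cpa3-only cells. Of 5 granule genes, cathepsin G (Ctsg, 1.92 ± 0.10, adjusted p = 2.22e-16 in edgeR) was higher and granzyme B (Gzmb, -2.31 ± 0.29, adjusted p = 6.17e-07 in edgeR) lower. Both lie in the chromosome 14 cluster that holds Mcpt8, and they went in opposite directions. Tyrobp (2.11 ± 0.17), the adaptor with which activating CD200 receptors pair, and the related adaptor gene Hcst (1.73 ± 0.26) were higher, 2 of 3 genes tested in that list. In the Ms4a family, to which Ms4a2 belongs, Ms4a6c (1.20) and Ms4a3 (0.92 ± 0.13) were higher, 2 of 3 (1 of 2 with DESeq2).

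Genes of early progenitors were split. Of 8 tested, Meis1 (-1.61 ± 0.45), Sox4 (-1.35 ± 0.25) and Cd27 (-1.15 ± 0.33) were lower, and Itga2b (1.71 ± 0.37) and Mpo (0.46 ± 0.10, named after its value was seen) were higher. Of 14 regulators, Ets1 (3.40 ± 0.57) was higher, Meis1 and Myb (-1.03 ± 0.22) were lower and 11 were not called. Gata2 gave 0.22 ± 0.18 and Lmo4 -0.27 ± 0.12, both chosen after their values were seen. With DESeq2 0 of the 6 progenitor genes and 0 of the 5 regulators that it tested were called. In edgeR 0 of 5 cytokine receptor genes, 0 of 13 cell division genes and 0 of 1 steroid synthesis gene (Tspo) were called. At an unadjusted p under 0.05 these were 2, 3 and 1 genes, and DESeq2 also called 0 of each list. In the mast or basophil marker list 4 of 14 were higher (Alox5, Ccl3, Ccl4 and, named after its value was seen, Cd63) and Gzmb was lower. The summed level of that list was 7888 to 8563 CPM in the cells with Mcpt8 or Prss34 and 6309 to 8342 CPM in Cpa3-only cells. It was higher in the former in all 3 libraries (7888 against 6703, 7961 against 6309 and 8563 against 8342 CPM).

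Of 4 eosinophil markers tested, Siglecf (-1.58 ± 0.37), Prg3 (-1.07 ± 0.18) and Prg2 (-0.60 ± 0.16) were lower in the cells with Mcpt8 or Prss34, 3 of 4 beside 2.48% of all genes, and Epx was not called. DESeq2 called 1 of the 4. The summed level of the list (9 genes) was 2108, 11659 and 2440 CPM in Cpa3-only cells of a, b and c and 1347, 4003 and 2492 CPM in the others, so it was not lower in c. With finer clustering Prg2 turned to 0.94 and Prg3 to 0.080, and without library b Prg2 gave -0.06, so the direction of these genes depends on which cells and libraries enter. With cells of at least 10 Prg2 UMIs left out, 198 genes were called, and Fcer1a and Ms4a2 kept their calls.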

How the data were processed

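The authors prepared the libraries with the 10x Genomics Chromium 3′ kit (V2), and per the submitters' processing notes Cell Ranger (1.3 and 2.1), Seurat (2.3.4) and mm10 were used. Reads of 2 sequencing runs were combined. The table deposited by the authors gives raw counts of UMIs for 15287 genes in 12893 cells, with no scaling, and has 0 columns of per-sample values left unused. The 7 genes, the gene lists and the tests were chosen with earlier results of these data known. The population behind a barcode suffix was read from the cell number that the study states for it. All cells in the table were kept. Depth was 2166655 to 36080242 UMIs per library, and Scrublet calls (165 cells) were recorded and kept. Cells were clustered with scanpy 1.11.5 (Python 3.11.15) on 2000 variable genes without the 7 genes and Fgd5, 20 principal components, 15 neighbours and Leiden resolution 1 (leidenalg 0.10.2). A cluster was named from fixed marker lists when at least 3 markers were 2-fold over the other cells and in 5% of its cells, and at least 1 stood among its 10 leading genes, the last limit set after the clusters were seen.

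Shares of cells have Wilson 95% intervals and levels exact Poisson 95% intervals, which cover counting error only. The authors' methods state no test for single cells. Cells were not used as replicates: UMI counts were summed per library, or per library and state, and tested with edgeR 4.0.16 (R 4.3.3; quasi-likelihood, TMM, filterByExpr, Benjamini-Hochberg over all genes tested, called at an adjusted p under 0.05). The state comparison had the library as a block because both states come from the same libraries. The reporter-positive group pools 2 differently gated libraries. The scripts were tested on simulated data. Alternatives were DESeq2 1.42.0, other scalings, no filter, other thinning depths, other clusterings, doublets left out and each library left out.

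Beside the 7 genes, the text names from each fixed list at most the 4 called genes with the largest difference and at least 50 UMIs, and the 3 genes most correlated with each of the 7 among those with at least 100 UMIs. Several genes named outside this rule are marked as chosen after their values were seen. Hdc, Epx and Tspo are named in the state comparison without a mark, though they were not called. The class markers Lmo4, Csrp3, Gata2, Hdc, Cma1, Prg2 and Epx were also named outside the rule, without a mark. Motif words were counted in RefSeq windows of GRCm38.p6, and gene spans come from GENCODE M21.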

Additional observations from a re-analysis of the deposited data

How the results depend on the processing

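The comparison of reporter-positive with Lin-kit+ libraries called the 7 genes lower under all alternatives run, with 5964 to 8579 genes called in all. No paired analysis was possible for it because the labels give no replicate numbers and tie no library of one group to a library of the other. The comparison of states within the class was less stable in its count. Against 222 genes, DESeq2 called 65, the fit with no replicate block 143, and leaving out 1 library between 33 and 138, while the other alternatives called 166 to 286. Fcer1a and Ms4a2 were called in each of them. Among the 23 named list genes, 41 single values lost their call and 3 reversed. Prg2 turned from -0.60 to 0.23 when states were set at 1000 UMIs, where only 2 libraries had enough cells, and to 0.94 at Leiden resolution 2, where Prg3 turned from -1.07 to 0.080. The cause was not tested.

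The median over the genes of the share of UMIs inside the class, 94.1%, stayed between 92.9% and 95.9%. The median share of Lin-kit+ cells with a UMI was 5.17% as counted, 3.42% at 2 or more UMIs, 3.96% when thinned to 2000 UMIs and 3.07% at 1000, and 4.90% to 5.51% with 1 library left out. The share of Mcpt8 cells with Prss34 was 84.6%, 87.2% at Leiden resolution 2 and 83.6% to 87.1% otherwise. Depth limits Cd200r3 and Cyp11a1 most, with 364 and 366 UMIs in all Lin-kit+ cells.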

Other observations

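The following genes were on no list and were picked after their values were seen from the 60 with the smallest p in edgeR, so they stand for themselves and not for a gene group. Higher in the mast or basophil-like cells with Mcpt8 or Prss34 than in those with Cpa3 only were the endoplasmic reticulum chaperone genes Hspa5 (1.37 ± 0.13 on the log2 scale, SE), Hsp90b1 (0.98 ± 0.15) and Calr (0.68 ± 0.09), the disulfide isomerase genes Pdia3 (1.09 ± 0.16) and Pdia6 (0.92 ± 0.15), and Sdf2l1 (2.49 ± 0.21) and Manf (1.57 ± 0.14), which code for other proteins of that compartment. Their adjusted p in edgeR lay between 1.85e-10 for Sdf2l1 and 7.21e-05 for Pdia6. Without library b the call of Pdia6 was lost (adjusted p = 0.080, edgeR), and those of the other genes held under each of the alternatives run.

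Lower in the same comparison, and also chosen after their values were seen, were the neutrophil elastase gene Elane (-1.22 ± 0.13), the apolipoprotein gene Apoe (-0.79 ± 0.12) and the interferon gamma receptor gene Ifngr1 (-1.36 ± 0.20). Ifngr1 held its call under each of the alternatives run. That of Elane was lost at Leiden resolution 2 (adjusted p = 0.0789, edgeR), and that of Apoe without library b (0.080) and without the block (0.314).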
